A study of Mus musculus with 93 samples.

Results

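The subject of this comparison is the level of Myc itself in the blood of tumor-bearing mice, and what else in the blood transcriptome goes with it. Of 93 arrays in the series, 51 arrays from tumor-bearing MMTV/c-MYC mice (training numbers 6 to 32 and validation numbers 9 to 33, without validation number 19) were ranked by the single Myc probe set. The 17 highest, called Myc-high here, were set against the 17 lowest, called Myc-low, and the 17 between them are called Myc-middle. These groups were chosen by a measured level and are no condition of the study, so every difference below is an association across arrays.

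The tumor-bearing animals were FVB/NJ females carrying an MMTV/c-MYC transgene, with advanced mammary tumors, in which the hormone-responsive long terminal repeat of the mouse mammary tumor virus drives c-MYC or a more stable mutant of it. Several transgenic lines entered the study, and the labels do not say which array came from which line. The 28 control arrays came from tumor-free, wild type females of the same FVB/NJ strain and of like age and breeding history. The study drew blood of both from the cheek about every month, and again before euthanization at a mean age of 431 days. White blood cells left after red cell lysis were taken as a bulk, NuGEN Ovation amplification was applied to their RNA, and each sample was put on 1 Affymetrix mouse genome array. The labels name no animals, so p-values measure the spread between arrays. In bulk blood, fewer cells of a type and less RNA per cell cannot be told apart.

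Myc is a transcription factor that pairs with Max and binds the DNA sequence CACGTG, called an E-box. Its best known targets make ribosomes, nucleotides and polyamines, and it drives cells into the cycle. In blood it is expressed in lymphocytes and in dividing progenitors, rises when lymphocytes are activated, and is low in mature neutrophils. In this mouse the promoter is chiefly active in mammary epithelium, and whether the Myc probe set also reads the transgene's transcript was not tested. By quantitative RT-PCR the study found little or no c-MYC transcript in blood cells of these mice, compared with their mammary tumors. It also compared array signals of Myc probe sets, on values normalized otherwise, and reports no significant difference between its groups of mice.

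The Myc probe set reads the gene at chr15:61985341-61990361 (GRCm38.p6). Its log2 intensity was 8.88 at the lowest, 9.23 at the median and 9.77 at the highest in Myc-high arrays, 8.36, 8.76 and 8.87 in Myc-middle arrays, and 7.25, 7.78 and 8.35 in Myc-low arrays. The ranking made these ranges and they carry no test. The levels ran on without a gap: rank 17 stood at 8.88 and rank 18 at 8.87, and rank 34 stood at 8.36 and rank 35 at 8.35. The control arrays, which were not ranked, had Myc between 6.59 and 9.06 with a median of 7.86. Their median was thus close to that of Myc-low arrays. The 51 ranked arrays together had a median of 8.76, and the 13 tumor arrays of lower number 6.47. These 13 arrays had 5' minus 3' differences of actin, a sign of RNA or amplification quality, of -2 to -1.2. Control arrays had -0.9 to -0.5. The poly-A spike-in dap read 2.39 to 4.58 in the 13 arrays, 6.74 to 10.5 in ranked arrays and 2.3 to 3.84 in control arrays. The part of RNA quality and processing in these Myc medians was not tested. Myc itself was not tested between tumor and control arrays.

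**Figure D1:**
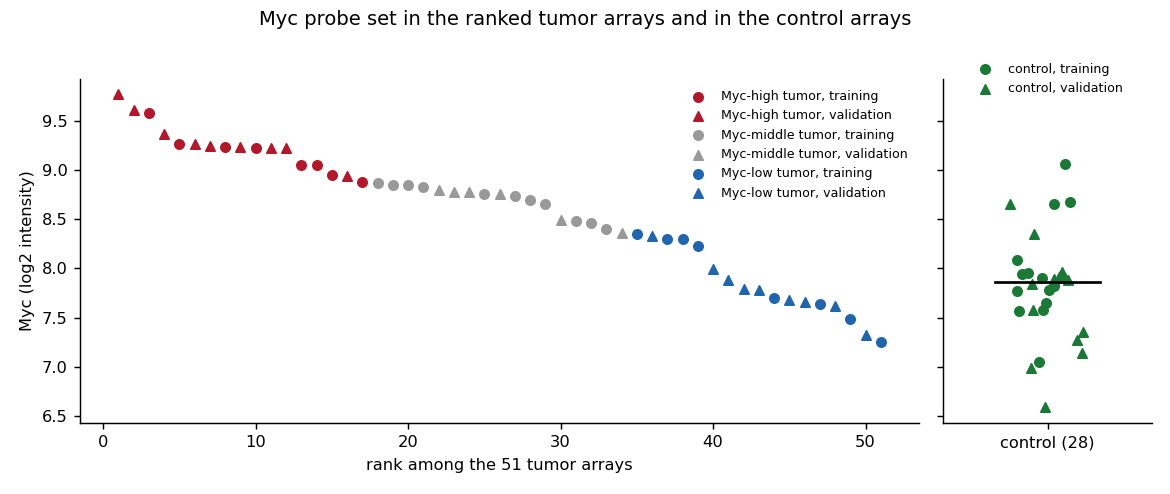
Log2 intensity of the Myc probe set in the 51 ranked tumor arrays (left, by rank, colour for the group, circles training and triangles validation) and in the 28 control arrays (right, bar at the median of 7.86). The ranked levels descend without a step at either group edge, with 8.88 beside 8.87 and 8.36 beside 8.35.

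Both groups held 8 training and 9 validation arrays. They differed in the numbers of their labels: 15 of 17 Myc-high arrays had numbers from 11 to 24, while 6 of 17 Myc-low arrays had numbers up to 10 and 8 had numbers from 25. The labels do not say what the numbers stand for, and their part in the results was not tested beyond the fits named below. The poly-A spike-in dap, 18S ribosomal RNA and the array medians did not pass the test between the groups (adjusted p from 0.365 to 0.802, permutation test over 5 measures). The 5' minus 3' difference of GAPDH, a sign of RNA or amplification quality, ran from -3.95 to -1 with a median of -1.3 in Myc-high arrays and from -1.5 to -0.9 with a median of -1.2 in Myc-low arrays (mean difference -0.41, adjusted p = 0.0148, permutation test). The 2 arrays lowest in this measure, training 22 and training 27, are Myc-high and also had the lowest actin differences of the ranked arrays, -2.3 and -1.1. Myc-high arrays validation 20, 23 and 31 also stood below every Myc-low array in GAPDH difference, at -2, -1.7 and -1.6. They stay in the fits below that leave out the 2 arrays of low actin difference, and no fit took the GAPDH difference as a covariate. Markers of white blood cells were well above the bottom of the scale of 1.23 in the ranked arrays, among them S100a8 of neutrophils (13.4 and above), Cd3e of T cells (9.49 and above) and Cd79a of B cells (7.67 and above) over the Myc-high and Myc-low arrays.

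Across all genes, the groups overlapped for every transcript and few probe sets passed the test. Of 45036 probe sets tested, 3 were called at an adjusted p under 0.05 (0.00666%), 2 higher and 1 lower in Myc-high arrays, while 5992 (13.3%) had an unadjusted p under 0.05. In no probe set (0%) did the 17 Myc-high values lie wholly apart from the 17 Myc-low values. Ptgfrn, which encodes an inhibitor of prostaglandin F2-alpha binding to its receptor, read from 2.96 to 4.15 with a median of 3.42 in Myc-high arrays and from 3.56 to 4.61 with a median of 4.05 in Myc-low arrays on its called probe set. It fell by 0.63 ± 0.11 on the log2 scale (SE, adjusted p = 0.049). A brighter Ptgfrn probe set, with medians of 7.33 and 7.8, differed by -0.38 ± 0.16 and did not pass (adjusted p = 0.274). The other called probe sets have no gene symbol in the annotation used. Of these, 1424227_at read from 6.86 to 8.09 in Myc-high and from 5.81 to 7.3 in Myc-low arrays, with 14 of 17 Myc-high arrays above the highest Myc-low array (0.79 ± 0.14, adjusted p = 0.049). The last, 1425501_at, was low on the scale in both groups, with medians of 3.01 in Myc-high and 2.43 in Myc-low arrays (0.60 ± 0.10, adjusted p = 0.0488). The count was 0 with the spike-in as a covariate or array medians subtracted, 6 without the 2 arrays of low actin difference, 175 between the 10 highest and 10 lowest arrays, and 1089 with array weights.

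With Myc taken as a continuous value over all 51 ranked arrays, a fit that also uses the Myc-middle arrays, 1913 probe sets passed (4.25%), 1425 rising and 488 falling with Myc (1021 and 931 with array medians subtracted). Read as genes, each by its brightest probe set, 750 of 18192 rose with Myc (4.12%) and 184 fell (1.01%). These shares are the background for every count of list genes rising or falling over the 51 arrays below. Slopes are in log2 units per log2 unit of Myc. This count moved with the fit. It was 36 with the class of the label number as a covariate, 853 without the 2 arrays farthest in Myc, 0 in the training and 1420 in the validation arrays alone, and 1 with the mean levels of the neutrophil, B cell and T cell lists as covariates. In this last fit 1425501_at was called (slope 0.52, adjusted p = 0.0131).

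The gene whose level ordered the arrays most like Myc was Dnmt3b, a methyltransferase that sets new DNA methylation (Spearman correlation 0.657 over 51 arrays). It read 5.78 at the lowest, 6.42 at the median and 6.79 at the highest in Myc-high arrays, against 5.3, 5.73 and 6.65 in Myc-low arrays. All 17 Myc-high arrays were above the Myc-low median, though the ranges overlapped. The difference of 0.59 ± 0.12 missed the threshold (adjusted p = 0.083), and the slope of 0.42 ± 0.07 passed it (adjusted p = 0.00123), also with the number class as covariate (adjusted p = 0.0433). Next came Arhgef18, a guanine nucleotide exchange factor (0.625), Klra16, of the Ly49 receptor family of NK cells (0.625), A130010J15Rik (0.622) and Pcgf6, a Polycomb subunit found in complexes with Max and Mga (0.62). The genes with the most opposite order were Arl1, a GTPase of the Golgi (-0.58), Cd93, a receptor on myeloid and progenitor cells (-0.57), Ntpcr, a nucleotide phosphatase (-0.54), Crybb1, a crystallin (-0.54), and Tm2d2 (-0.52). These correlations describe arrays that share cohort and number structure and carry no p.

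B cell transcripts had the highest median of all lists. All 20 measured genes of the B cell list were higher in Myc-high arrays by their fitted difference, each with an unadjusted p under 0.05, against 7.78% of all genes higher at that p. None passed after adjustment. The median difference over the list was 0.84, against -0.02 over all genes. Over the 51 arrays 16 of the 20 rose with Myc, against 4.12% of all genes. Without the 2 arrays of low actin difference the median was 0.83, and with the class of the label number as a covariate 0.46.

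Ebf1, a factor that commits progenitors to the B lineage, read 8 at the lowest, 9.15 at the median and 10.3 at the highest in Myc-high arrays, against 7.05, 8.21 and 9.5 in Myc-low arrays. In 6 of 17 Myc-high arrays it was above every Myc-low array (difference 1.00 ± 0.24, adjusted p = 0.0966, slope 0.62 ± 0.15, adjusted p = 0.0144). Cd72, a co-receptor that dampens B cell signaling, read 6.73, 7.97 and 8.55 in Myc-high arrays and 5.8, 7.06 and 7.94 in Myc-low arrays, with 10 of 17 Myc-high arrays above the Myc-low range (slope 0.57 ± 0.12, adjusted p = 0.00445). Bank1, a scaffold of the same pathway, had a slope of 0.66 ± 0.15 (adjusted p = 0.0105), and Pou2af1, a coactivator of immunoglobulin genes, of 0.41 ± 0.10 (adjusted p = 0.011). Cd79a, the signaling chain of the B cell receptor, had medians of 10.4 in Myc-high, 9.78 in Myc-middle, 9.58 in Myc-low and 10.55 in control arrays (slope 0.63 ± 0.17, adjusted p = 0.022).

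The genes of antigen presentation on MHC class II, which B cells share with monocytes and dendritic cells, were also higher. All 10 measured had a positive difference, 7 with an unadjusted p under 0.05, and 3 rose over the 51 arrays, with a list median of 0.51 (0.13 with the class of the label number as a covariate). H2-Ob, a chain of the H2-O modulator that is largely B cell restricted, read 8.5, 9.6 and 10.3 in Myc-high and 7.12, 8.71 and 10 in Myc-low arrays. All but 1 Myc-high array exceeded the Myc-low median (slope 0.65 ± 0.13, adjusted p = 0.00365). H2-Eb1 and H2-Oa rose with slopes of 0.43 ± 0.13 and 0.40 ± 0.12, whereas H2-Ab1, the main class II beta chain, had a slope of 0.35 ± 0.11 that did not pass (adjusted p = 0.0579). In the plasma cell list of 13 genes the median difference was 0.27 and 1 gene rose, Mzb1, a chaperone of antibody secretion (slope 0.50 ± 0.14, adjusted p = 0.0343).

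**Figure D2:**
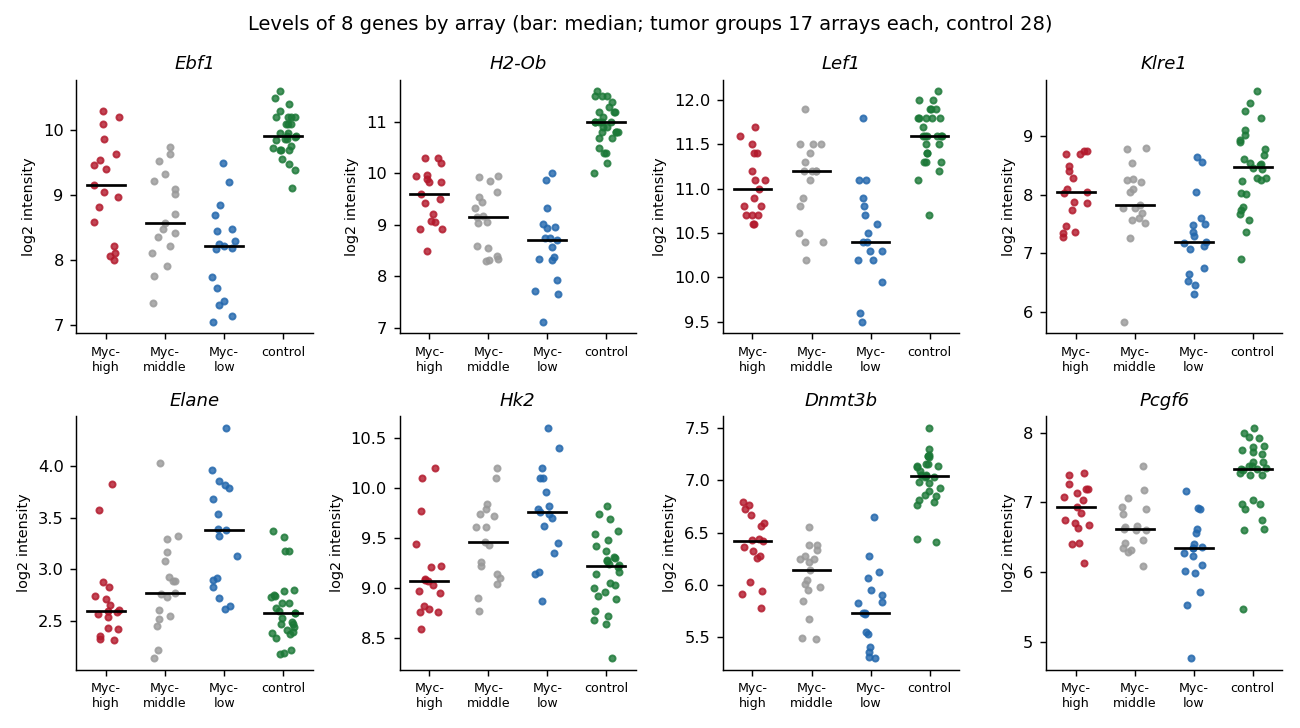
Log2 intensity of 8 genes by array in the Myc-high, Myc-middle and Myc-low tumor arrays (17 each) and the 28 control arrays, bars at the medians. Within tumor arrays Ebf1, H2-Ob, Lef1, Klre1, Dnmt3b and Pcgf6 were higher in Myc-high than in Myc-low arrays and Elane and Hk2 lower. The control arrays, with Myc close to that of Myc-low arrays, had the highest medians of all the genes named as higher, among them Ebf1 (9.91), H2-Ob (11) and Dnmt3b (7.04). Control and ranked arrays also differed in the poly-A spike-in dap (2.3 to 3.84 and 6.74 to 10.5).

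T cell genes followed with a list median of 0.43. All 22 measured had a positive difference, 17 with an unadjusted p under 0.05, and 10 rose with Myc over the 51 arrays. Lef1, a factor of naive T cells, read 10.6 at the lowest, 11 at the median and 11.7 at the highest in Myc-high arrays, against 9.5, 10.4 and 11.8 in Myc-low arrays. Every Myc-high array was above the Myc-low median, but the single highest value was in a Myc-low array (difference 0.56 ± 0.15, adjusted p = 0.115, slope 0.43 ± 0.10, adjusted p = 0.01). Ccr7, the receptor that brings naive lymphocytes to lymph nodes, had a slope of 0.49 ± 0.12 (adjusted p = 0.0154), and Cd3e, a chain of the T cell receptor complex, of 0.32 ± 0.08 (adjusted p = 0.0159).

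Genes of natural killer (NK) and cytotoxic cells had a median of 0.41, with 18 of 20 positive, 12 of them at an unadjusted p under 0.05, and 7 rising over the 51 arrays. Tbx21, which encodes the regulator T-bet, read 7.66, 8.85 and 9.42 in Myc-high and 6.77, 7.75 and 9 in Myc-low arrays. In 5 of 17 Myc-high arrays it was above the Myc-low range (slope 0.56 ± 0.11, adjusted p = 0.00365). Klrd1, which encodes the receptor chain CD94, rose with a slope of 0.44 ± 0.09 (adjusted p = 0.00365), and Klre1, an NK receptor of the same family, with 0.59 ± 0.13 (adjusted p = 0.00741). For both genes all 17 Myc-high arrays were above the Myc-low median. Fasl, the ligand through which cytotoxic cells trigger death of their targets, rose with 0.40 ± 0.12 (adjusted p = 0.0387). Ncr1, the defining receptor of NK cells, had medians of 7.89 in Myc-high and 7.1 in Myc-low arrays (slope 0.40 ± 0.18, adjusted p = 0.179).

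On the myeloid side, most genes of the granule, neutrophil and monocyte lists were lower in Myc-high arrays. None of them was called between the groups. Granule proteins made by immature neutrophils had the lowest median of all lists, -0.36, with 0 of 14 positive, 7 at an unadjusted p under 0.05 (7.37% of all genes were lower at that p) and 2 falling over the 51 arrays. Prtn3, the granule enzyme proteinase 3, read 5.61, 6.37 and 8.1 in Myc-high and 5.56, 8.15 and 8.45 in Myc-low arrays. All 17 Myc-high values lay below the Myc-low median, though the lowest value was in a Myc-low array (slope -0.68 ± 0.18, adjusted p = 0.0253). Elane, neutrophil elastase, was low on the scale in both groups, with medians of 2.6 in Myc-high and 3.38 in Myc-low arrays (slope -0.44 ± 0.10, adjusted p = 0.00842). Mpo, myeloperoxidase, did not pass (slope -0.40 ± 0.15, adjusted p = 0.115).

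The mature neutrophil list had a median difference of -0.22. Of its 20 genes, 10 were lower at an unadjusted p under 0.05 and 1 fell over the 51 arrays, Trem3, an activating receptor of myeloid cells (medians 10.6 in Myc-high and 11.4 in Myc-low arrays, slope -0.33 ± 0.10, adjusted p = 0.038). S100a8 and S100a9, which encode the calprotectin subunits that neutrophils hold in quantity, had medians of 13.7 and 14.2 in Myc-high and 13.8 and 14.1 in Myc-low arrays. Their differences were 0.01 ± 0.05 and 0.14 ± 0.06 (adjusted p = 0.979 and 0.324). Among monocyte genes 4 of 18 were lower at an unadjusted p under 0.05. Ccr2, the receptor with which inflammatory monocytes leave the marrow, had medians of 8.95 in Myc-high and 9.47 in Myc-low arrays and fell over the 51 arrays (slope -0.26 ± 0.08, adjusted p = 0.04). Fcgr1, a high-affinity antibody receptor of monocytes, had medians of 8.75 and 9.2 in the same order and a slope that missed the threshold (-0.37 ± 0.12, adjusted p = 0.0535).

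**Figure D3:**
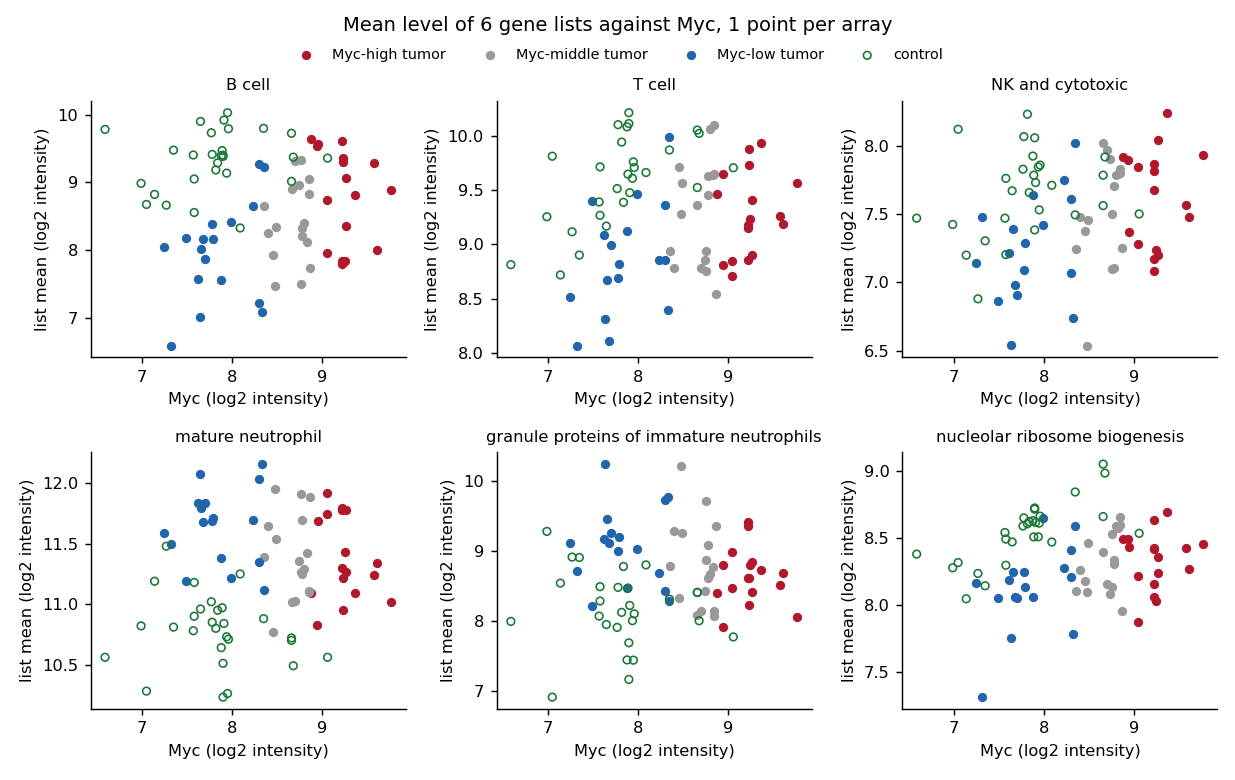
Mean log2 intensity of 6 gene lists (y axis) against the log2 intensity of Myc (x axis), 1 point per array, for Myc-high, Myc-middle, Myc-low and control arrays. B cell list means had medians of 8.88 in Myc-high and 8.05 in Myc-low arrays and 9.39 in control arrays, and tumor and control points overlap.

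Lists of other cell types gave few such genes. None of the 16 erythroid genes had an unadjusted p under 0.05 (median 0.26), platelet genes had a median of 0.10 with 2 of 16 higher, and the mammary epithelium list had a median of 0.04. List means of mammary genes ran from 3.71 to 4.85 in Myc-high and from 3.69 to 4.36 in Myc-low arrays, with medians of 3.93 and 3.88. The list means of Myc-high arrays training 22, 24 and 27 and validation 24 were 4.456, 4.853, 4.795 and 4.815. These stood above every Myc-low array, as did Myc-middle array validation 26 at 4.761. The milk protein gene Csn2 had the largest difference of the list, with a level up to 9.17 in Myc-high arrays and up to 6.26 in Myc-low arrays. Its medians were 2.94 and 2.61 (difference 1.45 ± 0.59, adjusted p = 0.271). The 13 progenitor genes had a median of 0.12, with 2 higher and 2 lower at an unadjusted p under 0.05, and over the 51 arrays 1 rose and 1 fell. The gene that rose was Myb, a factor of blood progenitors that lymphocytes also express, which read 9.16, 9.63 and 9.98 in Myc-high and 7.85, 9.08 and 9.72 in Myc-low arrays. Every Myc-high array was above the Myc-low median (slope 0.39 ± 0.07, adjusted p = 0.00132). The gene that fell was Cd93, named above (medians 10.3 and 10.8, slope -0.28 ± 0.08, adjusted p = 0.0265). Kit, the stem cell factor receptor of progenitors and mast cells, had medians of 4.5 and 6.67 in the same order and did not pass (slope -0.89 ± 0.33, adjusted p = 0.108).

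Of the growth program for which Myc is known, some branches held genes that rose with Myc and others held few or none. Over all genes 4.12% rose and 1.01% fell over the 51 arrays. Nucleolar genes of ribosome biogenesis were higher in all 33 measured, 13 with an unadjusted p under 0.05, with a small median of 0.19, and 8 rose over the 51 arrays. Nop56, a core protein of box C/D snoRNPs that guide ribosomal RNA methylation, read 9.69, 10.3 and 10.7 in Myc-high and 8.56, 9.88 and 10.4 in Myc-low arrays. In 5 of 17 Myc-high arrays it exceeded every Myc-low array (slope 0.35 ± 0.07, adjusted p = 0.0046). Dkc1, the pseudouridine synthase dyskerin, rose with a slope of 0.31 ± 0.08 (adjusted p = 0.018), Gnl3, nucleostemin, with 0.28 ± 0.07 (adjusted p = 0.0172), and Ncl, nucleolin, with 0.18 ± 0.05 (adjusted p = 0.0449). Npm1 and Fbl, which encode nucleophosmin and fibrillarin, had slopes of 0.13 ± 0.08 and 0.16 ± 0.07 that did not pass (adjusted p = 0.339 and 0.165).

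In nucleotide, polyamine and one-carbon synthesis 8 of 22 genes were higher at an unadjusted p under 0.05 and 4 rose over the 51 arrays. Cad, which starts pyrimidine synthesis, had a slope of 0.32 ± 0.08 (adjusted p = 0.0159), Impdh1, of guanine nucleotide synthesis, of 0.30 ± 0.07 (adjusted p = 0.0131) and Gart, of purine synthesis, of 0.28 ± 0.07 (adjusted p = 0.0253). Odc1, ornithine decarboxylase and a classical Myc target, had medians of 12.7 in Myc-high and 12.4 in Myc-low arrays and a slope of 0.13 ± 0.08 that did not pass (adjusted p = 0.315). Hspd1, the mitochondrial chaperonin HSP60, alone of 22 chaperonin and import genes rose (slope 0.26 ± 0.07, adjusted p = 0.0183), a count near the 4.12% of all genes that rose. Of 44 cytosolic ribosomal protein genes 3 rose, Rpl12, Rpsa and Rps15, and of 22 translation factors 0, with medians of 0.04 and 0.02 between the groups.

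Cell cycle genes had a median difference of 0.00 over 31 genes. Of the 31, 2 rose over the 51 arrays, beside 4.12% of all genes. They were the replicative helicase subunits Mcm7 and Mcm3 (slopes 0.24 ± 0.06 and 0.24 ± 0.07, adjusted p = 0.0237 and 0.0377). Cdc6, which loads that helicase, had medians of 3.88 in Myc-high and 4.62 in Myc-low arrays (adjusted p of the slope 0.21). Among regulators of G1 entry 3 of 22 genes fell, all inhibitors or stress genes. Cdkn1a, the inhibitor p21, which Myc is known to repress, read 4.71, 6.47 and 7 in Myc-high and 6.13, 6.8 and 7.59 in Myc-low arrays. In 15 of 17 Myc-high arrays it was below the Myc-low median (slope -0.36 ± 0.10, adjusted p = 0.0276). Gadd45b and Gadd45a, growth arrest genes of the stress response, had slopes of -0.32 ± 0.09 and -0.15 ± 0.04 (adjusted p = 0.0347 and 0.0264). Hk2, hexokinase 2, fell among the 18 glycolysis genes: it read 8.59, 9.07 and 10.2 in Myc-high and 8.87, 9.76 and 10.6 in Myc-low arrays (slope -0.37 ± 0.10, adjusted p = 0.0215). Of 38 respiratory chain genes 1 fell, Ndufb8, a subunit of complex I (slope -0.22 ± 0.06, adjusted p = 0.0352), beside 1.01% of all genes.

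The partners and rivals of Myc did not pass the test. In the 20 genes of the Myc dimerization network the median difference was 0.01, 1 had an unadjusted p under 0.05 and none rose or fell over the 51 arrays. Max, the obligate partner, read 12, 12.2 and 12.4 in Myc-high and 11.9, 12.1 and 12.4 in Myc-low arrays, a difference of 0.08 ± 0.06. Mxd1, which competes with Myc for Max and is abundant in neutrophils, differed by -0.03 ± 0.08. Trrap, a scaffold of histone acetyltransferases that Myc recruits, was the gene with the smallest p, at medians of 9.14 in Myc-high and 9.02 in Myc-low arrays (difference 0.23 ± 0.09, adjusted p = 0.273). The immediate early and NF-kappaB list had a median of -0.06, with 9 of 27 genes positive. Of the 27, 2 rose over the 51 arrays, Egr3 and Dusp2, both induced by antigen receptor signals (slopes 0.45 ± 0.11 and 0.33 ± 0.09, adjusted p = 0.0125 and 0.0215), while Jun differed by -0.46 ± 0.18 (adjusted p = 0.262).

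**Figure D4:**
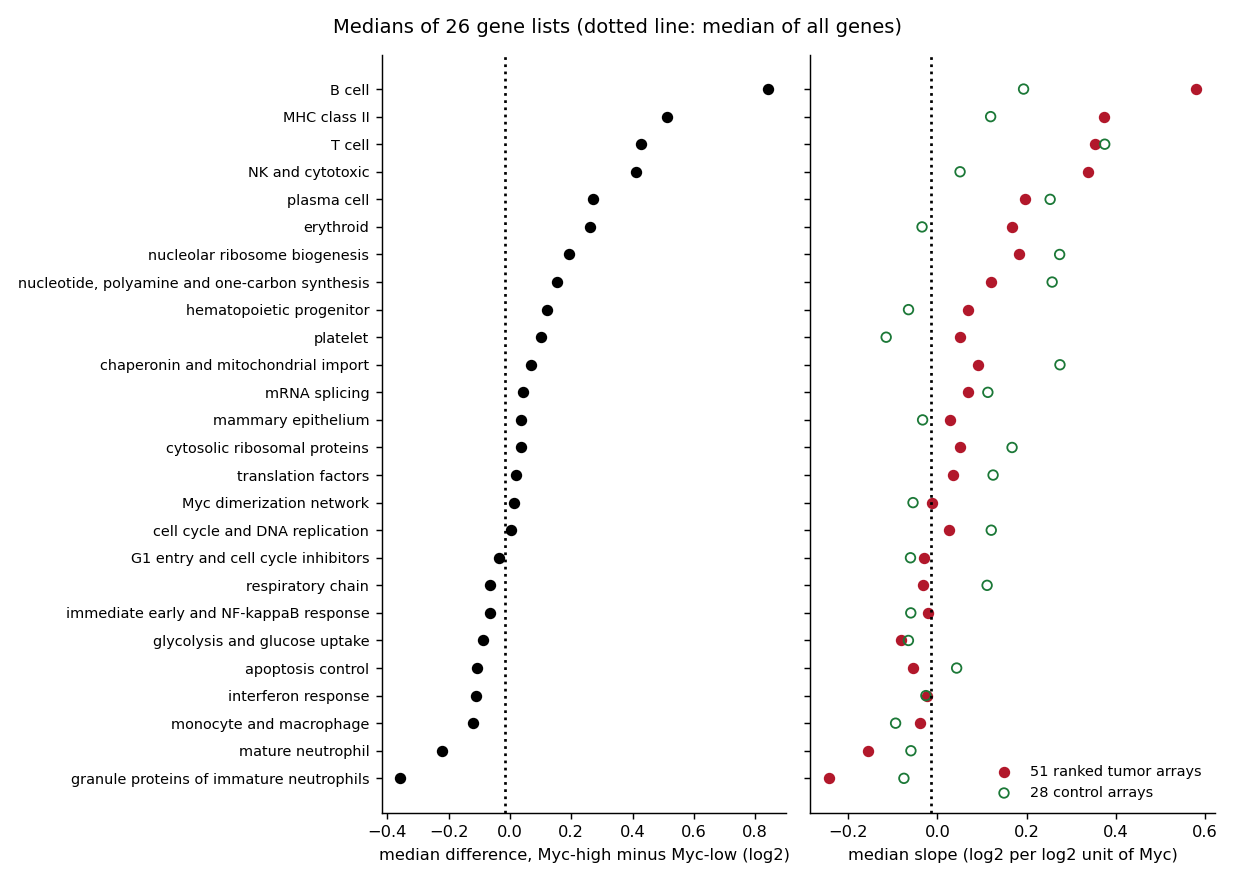
Median over each of 26 gene lists of the log2 difference Myc-high minus Myc-low (left) and of the slope on Myc in log2 per log2 unit (right, filled for the 51 ranked tumor arrays, open for the 28 control arrays), with dotted lines at the medians over all genes. The B cell list stands at 0.84 on the left and at 0.58 in ranked tumor and 0.19 in control arrays on the right, while the nucleolar list stands at 0.18 in ranked tumor and 0.27 in control arrays.

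The means of the leukocyte lists moved with the groups, beside every set of genes described above. With the mean levels of the neutrophil, B cell and T cell lists in the fit, the median slope of the nucleolar list was -0.03 (0.18 without them), that of the nucleotide list -0.02 (0.12 without them) and that of the NK list 0.09 (0.34 without them). Nop56 then had a slope of 0.08, Cdkn1a of -0.21 and Dnmt3b of 0.24, none past the threshold (adjusted p = 0.822, 0.691 and 0.506). The part of the mix in these associations was not tested beyond this fit.

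The label numbers moved with the groups as well. Among arrays numbered 11 to 24, the B cell list mean had a median of 9.07 in 15 Myc-high arrays, 8.33 in 9 Myc-middle arrays and 8.39 in 3 Myc-low arrays. Among arrays numbered from 25 it had a median of 8.81 in 2 Myc-high arrays, 8.34 in 7 Myc-middle arrays and 8.1 in 8 Myc-low arrays. The 6 Myc-low arrays numbered up to 10 had the lowest median, 7.54, with no Myc-high array in that class to set against them. For T cells the medians among arrays numbered from 25 were 9.21 in Myc-high, 9.64 in Myc-middle and 9.24 in Myc-low arrays, so the order of the groups was not the same in that class. Mature neutrophil list means had medians of 11.39, 11.29 and 11.37 there in the same order of groups. Those of the nucleolar list were 8.34, 8.46 and 8.22, and those of the NK list 7.89, 7.79 and 7.41.

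The cohorts gave unequal counts. Between the 9 Myc-high and 9 Myc-low validation arrays 1038 probe sets were called (2.3%), 627 higher and 411 lower (580 and 889 with array medians subtracted), and between the 8 and 8 training arrays none were (0%, 1031 at an unadjusted p under 0.05). A test of the difference between cohorts called no probe set (0%, 2717 at an unadjusted p under 0.05), so an unequal effect was not shown. The median of the B cell list was 0.68 in training and 1.06 in validation arrays, that of the T cell list 0.12 and 0.71, and that of the granule list -0.23 and -0.39.

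The control arrays, which took no part in the ranking, were used to ask whether transcripts go with Myc in blood without a tumor. Over these 28 arrays 3181 probe sets had a slope on Myc (7.06%), 2653 rising and 528 falling, a balance that turned to 1017 rising and 1189 falling with array medians subtracted. By genes 1379 rose (7.58%) and 233 fell (1.28%). Of the growth program 21 of 33 nucleolar genes rose, as did 16 of 22 chaperonin and import genes, 19 of 44 ribosomal protein genes and 11 of 22 genes of nucleotide and polyamine synthesis. Fewer did so in other branches, with 5 of 22 translation factors, 5 of 31 cell cycle genes and 0 of 18 glycolysis genes, and of 22 regulators of G1 entry 2 rose and 2 fell. Of T cell genes 11 of 22 rose, of NK genes 2 of 20, and of B cell genes 0 of 20. Fbl had a slope of 0.35 ± 0.08 in control arrays (adjusted p = 0.0097) and Npm1 of 0.22 ± 0.06 (adjusted p = 0.0218). With the T cell list mean as a covariate no probe set was called, and 5412 had an unadjusted p under 0.05. Over the 13 tumor arrays with lower numbers than those ranked, whose Myc ran from 4.46 to 7.76, no probe set was called (0%, 6664 at an unadjusted p under 0.05). In these 13 arrays the median slope was -0.03 for the B cell list (8 of 20 positive), 0.33 for the granule list (13 of 14) and 0.17 for mature neutrophils (19 of 20). In the ranked arrays these medians were 0.58, -0.24 and -0.15. The T cell, NK and nucleolar lists had medians of 0.22, 0.21 and 0.10 in the 13 arrays, positive as in the ranked arrays.

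Of the genes called in the 51 ranked tumor arrays, 195 were called in the same direction in the control arrays, 20.88% of the tumor calls and 12.1% of the control calls, and 5 in the opposite direction. Among the shared genes 191 rose and 4 fell. Pcgf6 had the smallest p of these in the ranked tumor arrays. It read 6.13, 6.94 and 7.42 in Myc-high and 4.76, 6.34 and 7.17 in Myc-low arrays, with slopes of 0.50 ± 0.09 in ranked tumor arrays (adjusted p = 0.00171) and 0.71 ± 0.13 in control arrays (adjusted p = 0.00284). Other shared risers were Rgs11, a regulator of G protein signaling (0.57 ± 0.11 and 0.58 ± 0.16), Nlrc3, a NOD-like receptor that dampens T cell activation (0.46 ± 0.09 and 0.44 ± 0.11), Il18r1, the interleukin 18 receptor (0.31 ± 0.06 and 0.47 ± 0.12), Dis3, the catalytic exosome nuclease (0.51 ± 0.11 and 0.34 ± 0.09), and Usp11, a deubiquitinase (0.36 ± 0.07 and 0.51 ± 0.11). The 4 shared genes that fell, Fcna, Bvht, Slc30a2 and Dmrtc2, were all low on the scale, with medians of 2.36 to 3.99 in Myc-high arrays. A test of the difference of the slopes called 388 probe sets (0.862%), 51 with the steeper positive or less negative slope in ranked tumor arrays and 337 the other way.

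The promoters of shared risers were searched for the E-box CACGTG, which reads the same on both strands, in windows from 250 bases before to 50 after the start (RefSeq, GRCm38.p6). Of 32851 such windows 7.15% hold it, as do 10.25% of the tested genes with a window. The share was 11.92% for the genes that rose over the 51 ranked arrays, 11.35% for those that fell, and 16.35% for the shared risers (26 of 159 with a window). For genes that rose over the control arrays the share was 12.64%, and for those that fell 6.95%. Of the nucleolar list 5 of 27 hold the E-box, of the T cell list 2 of 14, and of the B cell list 0 of 15, all small counts. The 3 shared risers with the smallest p that hold it are printed because their levels went with Myc in both sets of arrays. Windows on a single chromosome were left out of this choice, though not of the shares above. Capitals mark the E-box, and each sequence runs along the strand of the gene.
Dgka, chr10:128737563-128737862, minus strand: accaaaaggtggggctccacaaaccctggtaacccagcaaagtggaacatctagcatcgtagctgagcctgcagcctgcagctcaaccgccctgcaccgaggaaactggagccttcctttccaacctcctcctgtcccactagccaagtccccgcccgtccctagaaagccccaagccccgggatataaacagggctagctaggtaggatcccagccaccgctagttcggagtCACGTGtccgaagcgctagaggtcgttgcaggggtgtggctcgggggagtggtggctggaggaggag
Mdn1, chr4:32656869-32657168, plus strand: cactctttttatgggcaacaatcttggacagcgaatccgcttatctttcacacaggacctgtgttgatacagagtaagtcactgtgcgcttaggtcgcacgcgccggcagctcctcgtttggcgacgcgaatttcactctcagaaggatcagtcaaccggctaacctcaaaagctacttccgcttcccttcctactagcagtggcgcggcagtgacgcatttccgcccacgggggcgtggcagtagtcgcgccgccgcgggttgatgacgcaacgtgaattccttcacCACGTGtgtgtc
Ipo4, chr14:55635635-55635934, minus strand: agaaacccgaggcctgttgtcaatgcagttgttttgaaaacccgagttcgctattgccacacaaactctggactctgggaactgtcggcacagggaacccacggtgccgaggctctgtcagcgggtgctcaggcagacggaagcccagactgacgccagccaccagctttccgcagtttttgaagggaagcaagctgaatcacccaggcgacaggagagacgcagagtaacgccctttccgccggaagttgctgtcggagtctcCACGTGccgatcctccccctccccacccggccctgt

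Dgka encodes a diacylglycerol kinase that limits T cell receptor signaling, Mdn1 a motor ATPase of large ribosomal subunit assembly, and Ipo4 an importin that carries ribosomal proteins and histones into the nucleus. The E-box begins 17 bases before the annotated start of Dgka, and in Mdn1 and Ipo4 it lies after the start. Dgka read 10.5, 10.9 and 11.5 in Myc-high and 9.52, 10.6 and 11.2 in Myc-low arrays, with slopes of 0.33 ± 0.07 in ranked tumor arrays (adjusted p = 0.00815) and 0.41 ± 0.12 in control arrays (adjusted p = 0.0399). Mdn1 read 7.53, 7.95 and 8.43 in Myc-high and 5.95, 7.6 and 8.1 in Myc-low arrays, with slopes of 0.37 ± 0.08 and 0.32 ± 0.09 in the same order (adjusted p = 0.00836 and 0.0258). Ipo4 read 6.54, 6.94 and 7.6 in Myc-high and 5.06, 6.6 and 7.49 in Myc-low arrays, with slopes of 0.37 ± 0.08 and 0.40 ± 0.10 (adjusted p = 0.00917 and 0.0157). For Mdn1 and Ipo4 16 of 17 Myc-high arrays were above the Myc-low median, and for all 3 genes the ranges overlapped. A match is a description of the letters and does not show binding.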

How the data were processed

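Leukocyte RNA of 93 samples was measured, 1 array each. The values are on a log2 scale, computed by the authors with RMA before they deposited the table, and whether they also hold the study's standardization on principal components of control probe sets is not stated. The values have at most 3 significant digits, so they move in steps of 0.01 below 10 and coarser steps above. Of 45101 probe sets, 64 AFFX controls and the Myc probe set were left out of the tests. A platform annotation gave 34944 of the 45036 tested a single symbol, and a gene was read by its brightest probe set (18192 genes).

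Arrays were ranked by Myc and compared with limma 3.58.1 (R 4.3.3, lmFit, eBayes with intensity trend, two-sided, Benjamini-Hochberg over all tested probe sets), with cohort as covariate. Called means an adjusted p under 0.05. Errors of differences and slopes are standard errors. Array measures were compared by permutation with 100000 resamples. The code was tested on simulated data. Array number limits the precision.

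The members, the 26 lists (649 genes) and the naming rule were chosen with earlier results of these data known. The rule named genes called in both cohorts (there were none), up to 4 genes per list by smallest p, the Myc network, and 5 genes each of highest and lowest Spearman correlation at above-median level. Genes outside it, chosen after their values were seen, were Cd79a, Ncr1, S100a8, S100a9, Ncl, Npm1, Fbl, Odc1, the called probe sets, those called in both slopes, those with unequal slopes and those whose promoters are printed. The slope over the 51 ranked arrays became a result of its own, and the number class, actin and leukocyte mean alternatives were added, after seeing the data. Validation array 19 and, but for their own slope, the 13 tumor arrays of lower number were left out.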

Additional observations from a re-analysis of the deposited data

Results flagged for a closer look

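Slopes on Myc that passed a test of the difference between the 51 ranked tumor arrays and the 28 control arrays were looked up for the named genes and for the 4 most significant in each direction, chosen after seeing the data. Each value here is the slope in ranked tumor arrays minus that in control arrays, in log2 units per log2 unit of Myc, from a limma fit of both. Klre1, the NK receptor, had a difference of 0.97 (slopes 0.59 and -0.41). Trim56, a ubiquitin ligase of antiviral defence, had 0.25, Sox12, a SOX family factor, 0.51, Rexo1, an RNA exonuclease, 0.39, and Cfl1, the actin-severing protein cofilin, 0.19. The other direction held Zfp958, a zinc finger gene, with -1.05, Eif1ax, a translation initiation factor, with -0.55, Ndufv2, a subunit of complex I, with -0.45, and Btf3, a subunit of the nascent chain complex, with -0.49. Zfp958 rose with Myc in control arrays (slope 0.94 ± 0.20, adjusted p = 0.00188) and had a slope of -0.11 ± 0.11 in ranked tumor arrays. The ranked tumor arrays carry a poly-A spike-in (dap between 6.74 and 10.5) that the control arrays lack (2.3 to 3.84), so processing and tumor status cannot be told apart in these differences.

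Tumor validation array 19, left out of the ranking, had Myc at 12, above every control array and every ranked array.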

How the results depend on the processing

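The main comparison had 3 calls. It had 0 with the spike-in, 2 principal components of the control probe sets or the number class as covariates, with array medians subtracted, with dim probe sets left out, among numbers 11 to 24 only, and between the 25 highest and 25 lowest arrays. It had 1 with the neutrophil and B cell means or with the T cell mean as covariates, 5 among numbers from 25, 6 without the 2 arrays of low actin difference, 175 between the 10 highest and 10 lowest, 1089 with array weights and 1913 with Myc continuous. The other settings gave 2 to 4. With the label number as a replicate block it had 0 (1573 at an unadjusted p under 0.05). Only 2 numbers paired arrays of opposite groups, and deviations of same-numbered arrays correlated at -0.07 and 0.15. So few pairs cannot tell whether same-numbered arrays share more than a number. The call of 1424227_at was lost in 15 of 20 alternatives, that of Ptgfrn in 11 of 19 with its sign kept and under the block with a difference of 0.05, and that of 1425501_at in 8 of 19. The validation count of 1038 was 2435 with actin and 18S covariates and 1655 without dim probe sets. The control slope count of 3181 was 4861 without the cohort covariate, 5079 without the 2 arrays farthest in Myc, 445 with the replicate block and 0 with the T cell mean. The count of 1913 over the 51 arrays was 36 with the number class, 3472 with actin and 18S, 1 with the 3 leukocyte means, 3609 with array weights, 853 without the 2 farthest arrays and 0 in training arrays alone. Of 520 list medians under alternatives, 59 changed sign, 51 of them in lists whose median was within 0.2 of 0. Among these the nucleolar list went to -0.04 and the chaperonin list to -0.14 with the neutrophil and B cell means, glycolysis to 0.18 and ribosomal proteins to -0.19 with the block, platelet to -0.14 with array 19 kept, and interferon to 0.12 among numbers from 25. The lists with a larger median that changed sign were MHC class II to -0.13 with the neutrophil and B cell means and -0.0225 with the replicate block, plasma cell to -0.029 with the neutrophil and B cell means, T cell to -0.0087 with its own mean, -0.37 with the block and -0.0592 among numbers from 25, mature neutrophil to 0.025 with the block, and erythroid to -0.05 among numbers 11 to 24. The causes were not tested. The groups follow a measured level, number class and leukocyte means move with them, and arrays carry no animal labels.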

Other observations

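The interferon, apoptosis and splicing lists had no gene called between Myc-high and Myc-low arrays or over the 51 ranked arrays. Of 22 interferon response genes 1 was lower at an unadjusted p under 0.05 and none higher, with a median difference of -0.11. Ifih1, a sensor of viral RNA, had medians of 7.89 in Myc-high and 8.19 in Myc-low arrays (difference -0.28 ± 0.14, adjusted p = 0.375). Of 18 genes of apoptosis control 4 were lower at that p and none higher, beside 7.37% of all genes lower, with a median difference of -0.11, and the list mean was below the Myc-low median in 15 of 17 Myc-high arrays. Fas, the death receptor that Fasl engages, had medians of 10 in Myc-high and 10.5 in Myc-low arrays (difference -0.29 ± 0.12, adjusted p = 0.29), and Apaf1, the scaffold of the apoptosome, had medians of 9.81 and 10.2 in the same order (difference -0.28 ± 0.12, adjusted p = 0.301). Of 23 splicing genes 1 was higher and 1 lower at that p. Srsf6, a splicing regulator, had medians of 10.6 in Myc-high and 10.3 in Myc-low arrays (difference 0.25 ± 0.10, adjusted p = 0.267).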
